A study of Mus musculus with 2 samples.

Results

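The genes described here are 41 genes of the lysosome, its cathepsins and other hydrolases, its proton pump and autophagy, in dissected air pouch membranes of mice. They were taken as the probe sets that the array's annotation assigns to a single gene, that gene being on the list. For 39 of the 41 genes this gave 94 of the 45101 probe sets on the array, while the annotation used here listed no such probe set for Cd63, a lysosomal tetraspanin, or Atp6v0c, the proteolipid ring subunit of the pump, which were not analysed. The 39 genes are 9 cathepsins, 7 other hydrolases and activators, 9 membrane proteins and regulators, 8 proton pump subunits and 6 autophagy genes, of 18193 genes with such a probe set.

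The MSU pool held RNA from 3 female Balb/C mice, 6 to 8 weeks old, whose pouches were injected with 2 mg monosodium urate (MSU) crystals in 1 ml PBS. The control pool held RNA from 3 such mice injected with 1 ml PBS alone. In both groups the pouch, a cavity under the skin of the back whose lining serves as a model of the synovial membrane, had been raised by injecting 2 ml air 7 days earlier, per the sample records (the study's methods describe a slightly different schedule), and the membrane was dissected 9 h after injection. Each pool was hybridized to 1 array, so there were no replicates, no test was possible and every value below describes these 2 pools.

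Lysosomes are acidic organelles that break down material taken up by phagocytosis or delivered by autophagy. A vacuolar proton pump acidifies them, cathepsins cut proteins, and other hydrolases remove sugars and lipids. Transcription factor EB (TFEB) and its relatives bind a short DNA motif, an extended E-box, near many lysosomal genes. In phagocytes, engulfed MSU crystals are known to damage lysosomes and release cathepsins into the cytosol, a step linked to inflammasome activation.

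Signals are linear, as the authors' Affymetrix software gave them. A probe set was taken as detected where its signal reached a floor, 74.1 on the MSU array and 64.6 on the control array, set so that as many probe sets lay above it as the study counted as detected. Where both signals reached the floor the ratio is given as a fold, and of several probe sets for a gene the one with the greatest mean log2 signal stands for it. Where only one signal reached its floor, it was set against the other array's floor to give a bound, and measured genes are those with a fold or such a bound. Log2 ratios are MSU over control. Over 4002 genes, the SD of log2 ratios between a gene's own probe sets was 0.22 at the median, which holds no variation between mice. The 18 probe sets for spike-in controls all gave more signal on the MSU array, with a median ratio of 1.37. They belong to the added controls BioB, BioC, BioD and cre, with several probe sets each, so the 18 are not independent. Scaling on these spike-ins would lower every log2 ratio by 0.46 and the median of all genes to -0.51. It is given as an alternative scaling only, since the amount of RNA per cell or per membrane was not measured.

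Lysosome and autophagy transcripts were detected in both pools for all 39 genes, and most had similar signals. None exceeded its control signal by 2-fold or more, where 3.7% of all 11155 measured genes were, and 2 were at least 2-fold lower, namely Tfeb and Lipa, where 4.29% of measured genes were. At a limit of 1.5-fold, chosen after the values had been seen, 0 members were higher and 5 lower (Tfeb, Lipa, Cd68, Mcoln1 and Atp6v1d), against 8.65% of measured genes higher and 14.4% lower. The other 34 members lay within 1.5-fold. The median log2 ratio of the members was -0.03, beside -0.05 over the 10045 genes with a fold. The ratio was above 0 for 18 members and below 0 for 21, beside 4523 above and 5521 below over all genes with a fold. With arrays scaled by their median, 12 members were above and 27 below. With quantile normalization 14 were above and 25 below. Under scaling on the spike-ins all 39 were below, as were 8802 of the 10045 genes with a fold. In RNA from whole membranes, fewer cells of a type and less RNA per cell cannot be told apart.

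**Figure D1:**
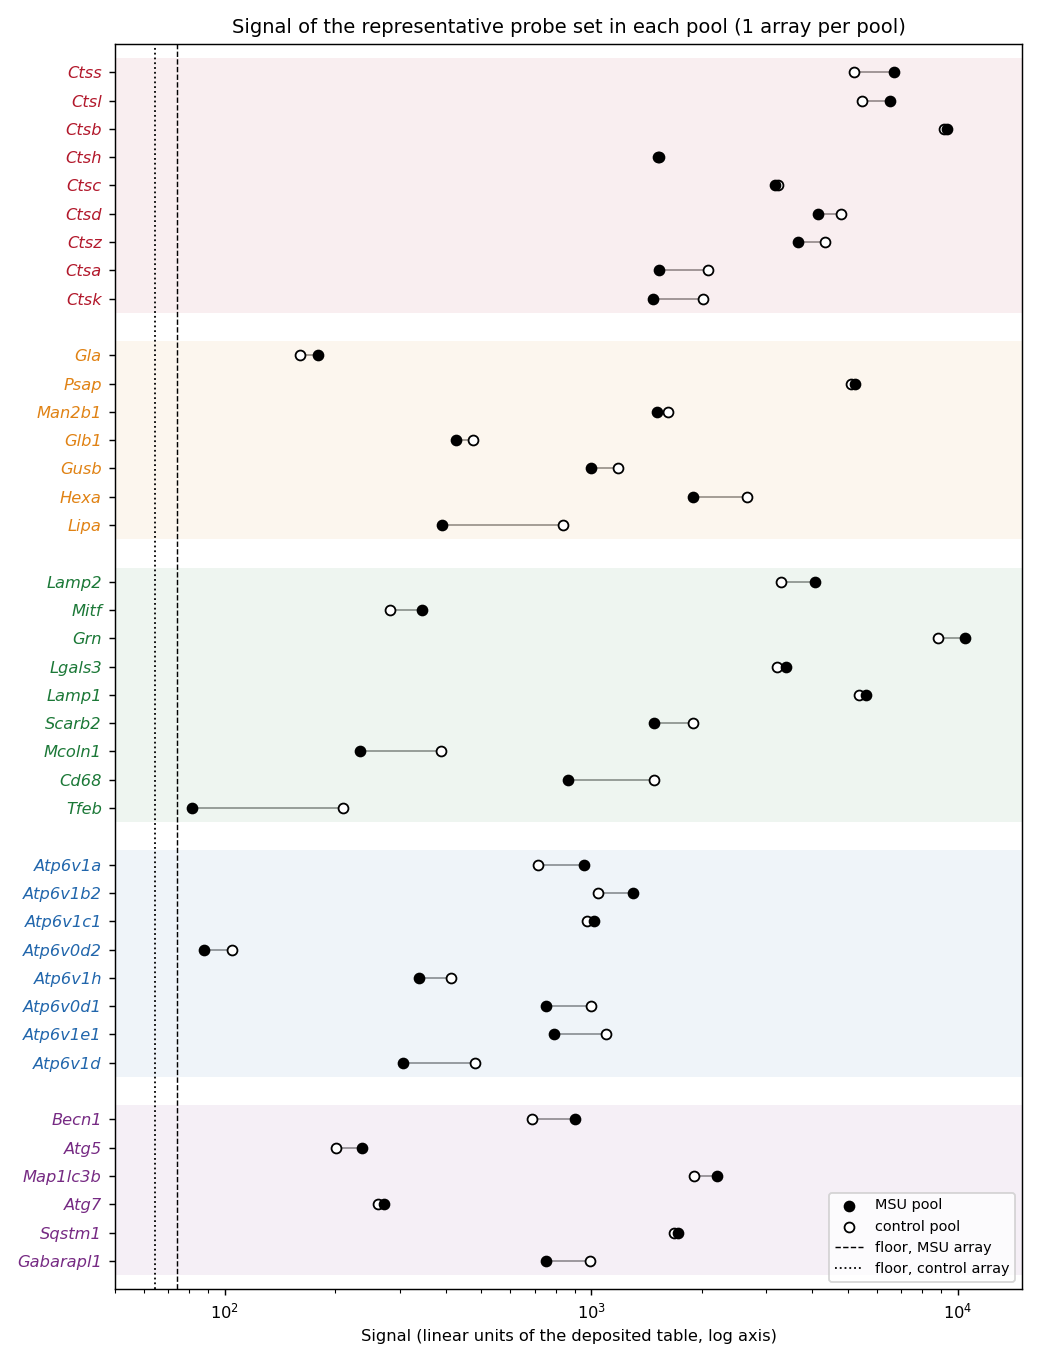
Signal of the representative probe set of each of the 39 genes (x axis, linear signal on a log axis) in the MSU pool (filled) and the control pool (open), 1 array per pool, grouped from top to bottom as cathepsins, other hydrolases and activators, membrane proteins and regulators, proton pump subunits and autophagy genes. Vertical lines are the detection floors. The longest gap is that of Tfeb, whose MSU signal of 81.6 lies next to the floor of 74.1, and Lipa follows at 391 in the MSU pool and 837 in the control pool.

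Tfeb, which encodes the main activator of lysosomal genes, had the lowest ratio of all members. The signal of its only probe set was 81.6 in the MSU pool and 210 in the control pool, which is 2.57-fold lower (log2 ratio -1.36). Only 1.31% of the genes with a fold had a lower ratio. The MSU signal lay just above the floor, and adding the floors to the signals before the ratio gave -0.82 on the log2 scale. Mitf, a relative of TFEB best known from melanocytes and osteoclasts, had signals of 346 in the MSU pool and 282 in the control pool (log2 ratio 0.30). Its other probe set, at 75.7 in the MSU pool and 48.1, below the floor, in the control pool, gave a bound of at least 1.17-fold higher. Among the relatives that are not members, Tfec, which is largely restricted to myeloid cells, had signals of 264 in the MSU pool and 137 in the control pool and was 1.92-fold higher. For Tfe3, which is broadly expressed, they were 516 in the MSU pool and 488 in the control pool (log2 ratio 0.08). The ratio thus differed within the family, and those of Mitf and Tfe3 lie below 0 once the arrays are scaled on the spike-ins.

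Promoters of some members hold the core of the motif bound by TFEB. RefSeq promoters (GRCm38.p6, from 250 bases before to 50 after the start) were matched for 32 of the 39 genes, 38 promoters in all. The core CACGTG, which reads the same on both strands, was found in 11 of the 38, or 28.9%, beside 9.75% of the 11567 promoters of measured genes and 7.15% of all 32851 promoters in the table. The longer TCACGTG, which contains the core and was searched on both strands, was found in 9 of the 38, or 23.7%, beside 5.81% and 3.77%. The stretches below are the 150 bases before the start for 4 genes with the core in that stretch, from 3 of the groups, and for Lipa, the hydrolase with the lowest ratio, and the core is in capitals.
Lamp1, chr8:13159011-13159160, plus strand: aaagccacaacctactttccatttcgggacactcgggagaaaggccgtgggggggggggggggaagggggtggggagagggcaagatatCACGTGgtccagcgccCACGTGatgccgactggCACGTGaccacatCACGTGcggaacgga
Ctsd, chr7:142387828-142387977, minus strand: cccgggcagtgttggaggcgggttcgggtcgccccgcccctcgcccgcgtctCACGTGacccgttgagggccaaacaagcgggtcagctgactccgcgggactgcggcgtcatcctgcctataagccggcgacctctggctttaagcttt
Mcoln1, chr8:3500369-3500518, plus strand: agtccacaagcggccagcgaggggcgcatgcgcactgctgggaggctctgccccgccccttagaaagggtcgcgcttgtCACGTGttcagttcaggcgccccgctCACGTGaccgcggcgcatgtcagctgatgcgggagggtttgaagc
Atp6v1a, chr16:44139260-44139409, minus strand: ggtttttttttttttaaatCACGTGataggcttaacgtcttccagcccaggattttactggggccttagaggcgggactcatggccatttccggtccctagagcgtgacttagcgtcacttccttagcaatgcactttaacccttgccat
Lipa, chr19:34527475-34527624, minus strand: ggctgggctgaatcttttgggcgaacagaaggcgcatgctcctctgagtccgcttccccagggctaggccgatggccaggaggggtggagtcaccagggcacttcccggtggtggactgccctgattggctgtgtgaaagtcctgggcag
Lamp1 holds 4 copies, which begin 61, 45, 28 and 15 bases before the start. Mcoln1 holds 2, at 71 and 45 bases. The Ctsd stretch holds 1 at 98 bases, while its whole promoter holds 2, and the Atp6v1a stretch holds 1 at 131 bases. The annotated Atp6v1a gene reaches to base 44139702 of chr16, so its stretch lies inside the gene, before a start further downstream. The Lipa stretch holds none.

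Genes with the core did not share a ratio. The log2 ratios of the 11 genes with it ranged from -0.73 (Mcoln1) to 0.42 (Atp6v1a), with a median of 0.06, and 6 were above 0 and 5 below. In the 21 genes with a matched promoter and no core, they ranged from -1.36 (Tfeb) to 0.36 (Ctss), with a median of -0.24, and 8 were above 0 and 13 below. For the longer motif, the medians were -0.15 over 9 genes with it and -0.10 over 23 without it. Under scaling on the spike-ins all these ratios are below 0.

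Among the membrane proteins, the macrophage sialomucin Cd68 and the calcium channel Mcoln1 were lower in the MSU pool, and the ratios of the glycoproteins Lamp1 and Lamp2 lay nearer to 0. Cd68, a late endosomal protein of macrophages, had signals of 862 in the MSU pool and 1485 in the control pool (1.72-fold lower). Mcoln1, the channel that releases calcium from lysosomes and lies upstream of TFEB activation, had signals of 234 in the MSU pool and 389 in the control pool (1.66-fold lower). Its other probe sets had log2 ratios of -0.57 and -0.11. Lamp1 had signals of 5626 in the MSU pool and 5379 in the control pool (log2 ratio 0.06), which was -0.01 with arrays scaled by their median and -0.03 with quantile normalization, and Lamp2, which also serves in chaperone-mediated autophagy, 4083 in the MSU pool and 3296 in the control pool (0.31). The 4 probe sets of Lamp2 did not share a direction and ranged from -0.30 to 0.31. Scarb2 (LIMP-2), the carrier of glucocerebrosidase, had signals of 1484 in the MSU pool and 1891 in the control pool, a log2 ratio of -0.35.

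The paralogue Mcoln2, which is no member, had the highest ratio of any gene on the further pathway lists. Its signals were 475 in the MSU pool and 142 in the control pool, which is 3.35-fold higher. Mcoln1 and Mcoln2 thus lay on opposite sides of equal signal, also under scaling on the spike-ins. The third mucolipin, Mcoln3, lay below the floor in both pools.

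Progranulin and galectin-3 had similar signals in both pools. Grn (progranulin), a secreted and lysosomal glycoprotein, had signals of 10459 in the MSU pool and 8845 in the control pool, with a log2 ratio of 0.24 on its representative probe set. The other two gave -0.06 and -0.29, so the direction rests on the probe set chosen. Lgals3 (galectin-3), a lectin that gathers on broken lysosomes, had signals of 3399 in the MSU pool and 3212 in the control pool, a log2 ratio of 0.08. Of 7 other galectin genes with a probe set, 5 were measured, and none passed 2-fold on its representative probe set. Lgals1 had signals of 4095 in the MSU pool and 7842 in the control pool (1.91-fold lower), and 2.50-fold lower on its other probe set.

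The 9 cathepsins lay within 1.5-fold in both directions. Their median log2 ratio was -0.03, with 3 above 0 and 6 below, and all were below 0 under scaling on the spike-ins. Ctss, the cysteine protease of antigen-presenting cells that trims the invariant chain, had the highest ratio of the group, with signals of 6678 in the MSU pool and 5212 in the control pool (log2 ratio 0.36). Ctsl, a widely expressed cysteine protease, followed with 6507 in the MSU pool and 5476 in the control pool (0.25). Ctsk, the collagen-cutting cathepsin of osteoclasts that fibroblasts also make, had the lowest, with 1470 in the MSU pool and 2016 in the control pool (-0.46). Ctsa, the carboxypeptidase that protects beta-galactosidase and neuraminidase, was close to it with 1528 in the MSU pool and 2084 in the control pool (-0.45). The span from Ctss to Ctsk was thus less than 2-fold.

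Ctsb, the cathepsin most often tied to crystal-induced lysosomal damage, had signals of 9359 in the MSU pool and 9164 in the control pool (log2 ratio 0.03). The ratio was -0.04 with arrays scaled by their median and -0.19 with quantile normalization. The second bright probe set of Ctsb gave 9469 in the MSU pool and 8354 in the control pool (0.18). The dimmer ones did not share this, since their log2 ratios were -0.14, -0.49 and 0.82, and the last had signals of only 270 in the MSU pool and 153 in the control pool. The aspartic protease Ctsd had signals of 4165 in the MSU pool and 4808 in the control pool (-0.21). For Ctsz, a carboxypeptidase, they were 3656 in the MSU pool and 4328 in the control pool (-0.24), and its other probe sets gave -0.55 and -0.31, so all 3 were lower. Ctsh, an aminopeptidase, had 1518 in the MSU pool and 1534 in the control pool (-0.01). Ctsc, which activates the serine proteases of neutrophil granules, had 3160 in the MSU pool and 3230 in the control pool (-0.03), and -0.55 on a dim probe set. Of 10 further lysosomal proteases, 9 were measured, 1 was past 2-fold upward and none downward. This was the aspartic protease Napsa, with 228 in the MSU pool and 105 in the control pool (2.17-fold higher). Legumain (Lgmn), the asparaginyl endopeptidase that processes cathepsins, had 5802 in the MSU pool and 4898 in the control pool (0.24).

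**Figure D2:**
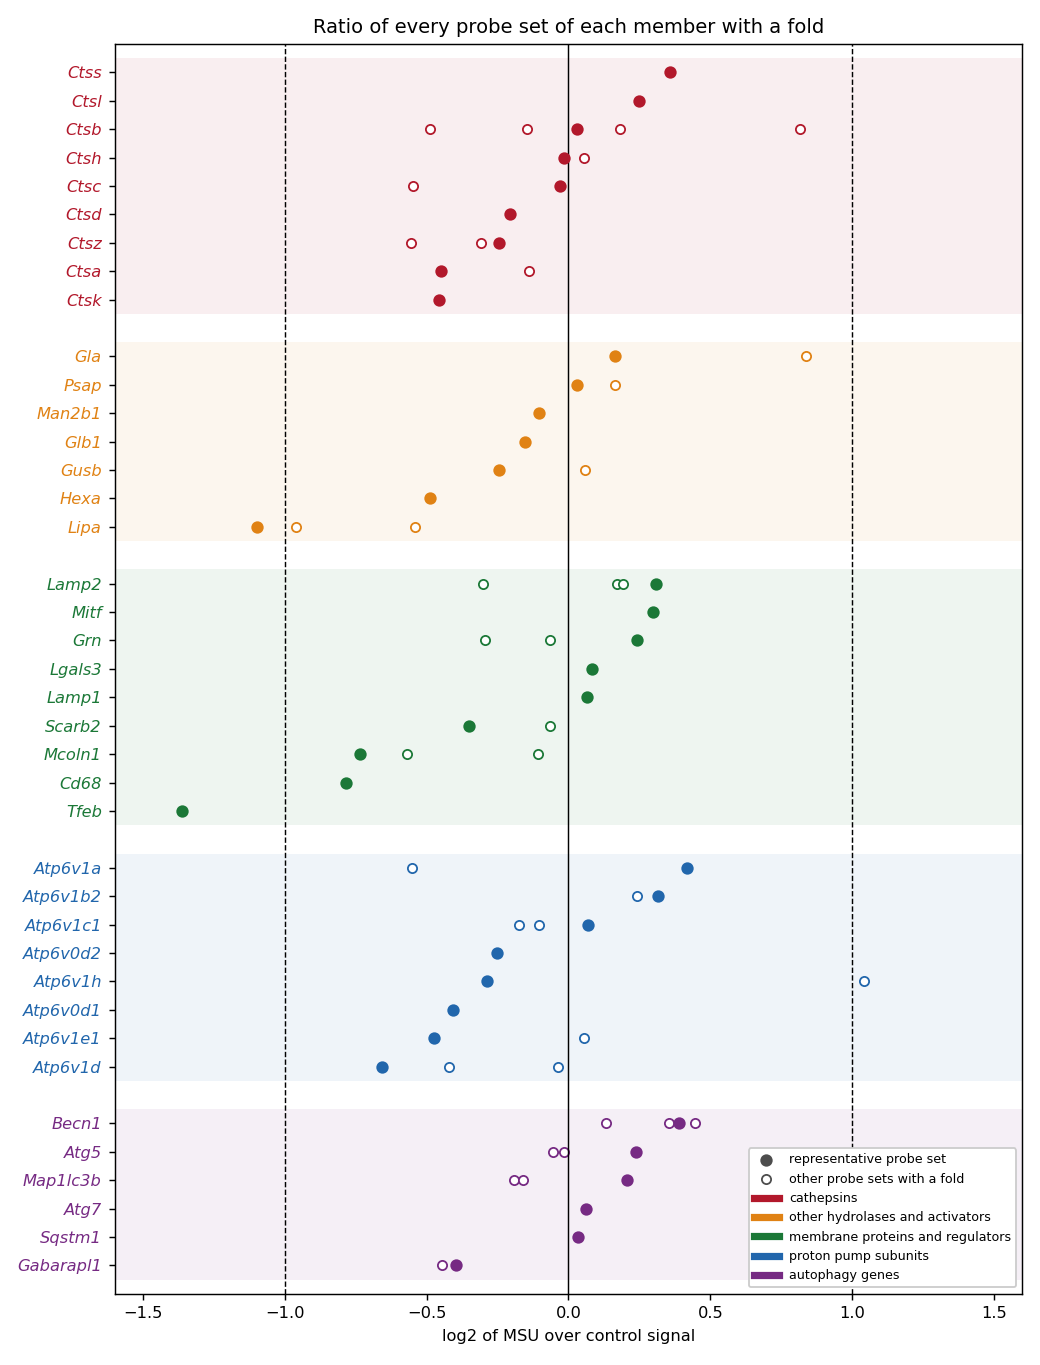
Log2 ratio, MSU over control (x axis), of each probe set with a fold of the 39 genes, 1 array per pool. Filled points are the representative probe sets, open points the others, the solid line equal signal and the dashed lines 2-fold. All 3 probe sets of Lipa lie left of 0, whereas those of Ctsb run from -0.49 to 0.82 and those of Atp6v1h from -0.29 to 1.04.

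Of the other hydrolases, the lipase Lipa was lower in the MSU pool and the enzymes that act on sugars differed less. Lipa (lysosomal acid lipase), which frees cholesterol and fatty acids from lipoproteins, had signals of 391 in the MSU pool and 837 in the control pool and was 2.14-fold lower (log2 ratio -1.10). Its other probe sets, at 272 in the MSU pool and 529 in the control pool and at 248 in the MSU pool and 361 in the control pool, had log2 ratios of -0.96 and -0.54, so all 3 were lower and 1 passed 2-fold. Hexa, the alpha subunit of beta-hexosaminidase, had signals of 1898 in the MSU pool and 2662 in the control pool (-0.49). The beta-glucuronidase Gusb had 996 in the MSU pool and 1179 in the control pool (-0.24), and 0.06 on its second probe set. The beta-galactosidase Glb1 had 427 in the MSU pool and 475 in the control pool (-0.15), and the alpha-mannosidase Man2b1 1511 in the MSU pool and 1622 in the control pool (-0.10). Psap, whose protein is cut into the saposins that present lipids to hydrolases, had 5223 in the MSU pool and 5120 in the control pool (0.03). Gla, the alpha-galactosidase, had 179 in the MSU pool and 160 in the control pool (0.16), and on a dimmer probe set 134 in the MSU pool and 74.7 in the control pool (0.84).

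The group's median log2 ratio was -0.15, with 2 of 7 above 0. Most of the further hydrolases and activators were also below 0. All 23 with a probe set had a fold, and none passed 2-fold. Of the 23, 19 were below 0 and 4 above, beside 5521 below and 4523 above over all genes with a fold. Their median was -0.23, beside -0.05 over all genes. The arylsulfatase Arsb was lowest, with 404 in the MSU pool and 744 in the control pool (1.84-fold lower). The fucosidase Fuca1 was 1.52-fold lower and the asparaginase Aga, which cuts glycoproteins, 1.53-fold lower.

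The proton pump subunits had a median log2 ratio of -0.27, with 3 of 8 above 0 and 5 below. This was the lowest of the group medians, but the order rests on the probe sets used. With the median over probe sets the pump was at -0.16 and the cathepsins at -0.21, and without probe sets ending in _x_at or _s_at the pump was at -0.10, the other hydrolases at -0.15 and the membrane proteins and regulators at -0.29. In the soluble V1 sector, which splits ATP, the catalytic subunit Atp6v1a had signals of 954 in the MSU pool and 714 in the control pool (0.42), the highest ratio of any member, but its second probe set had 576 in the MSU pool and 844 in the control pool (-0.55). Its partner Atp6v1b2 had 1297 in the MSU pool and 1041 in the control pool (0.32), with 0.24 on its second probe set. Atp6v1c1, a subunit of the stalk, had 1019 in the MSU pool and 973 in the control pool (0.07), but its other probe sets gave -0.10 and -0.18. The central stalk subunit Atp6v1d was lowest, with 306 in the MSU pool and 482 in the control pool (1.58-fold lower), and its other two probe sets gave -0.42 and -0.04. Atp6v1e1, of the outer stalk, had 790 in the MSU pool and 1098 in the control pool (-0.48), and 0.06 on a second probe set. The regulatory subunit Atp6v1h had 340 in the MSU pool and 414 in the control pool (-0.29), while a dimmer probe set had 158 in the MSU pool and 76.5 in the control pool (2.06-fold higher), the only member probe set with a fold of 2 or more in that direction.

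In the membrane sector, the d subunit has a broadly expressed form, Atp6v0d1, and one known from osteoclasts and macrophages, Atp6v0d2. Atp6v0d1 had signals of 751 in the MSU pool and 996 in the control pool (-0.41). Atp6v0d2 had 88.0 in the MSU pool and 105 in the control pool (-0.25), both near the floor, and its other probe set lay below the floor in the MSU pool, at 68.3, against 106 in the control pool. Of 8 osteoclast markers, Calcr, Dcstamp and Ocstamp lay below the floor in both pools. The other 5 (Oscar, Nfatc1, Itgb3, Tnfrsf11a and Car2), which other cells also express, were measured in both, with a median log2 ratio of 0.17 and none past 2-fold. Of 15 further pump subunits and accessory proteins with a probe set, 10 were measured, with 2 above 0, 8 below and a median of -0.20. The lowest was the stalk subunit Atp6v1f, with 427 in the MSU pool and 836 in the control pool (1.96-fold lower). Tcirg1, the a3 subunit of lysosomes and osteoclasts, had 650 in the MSU pool and 562 in the control pool (0.21).

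Autophagy genes had the highest group median, a log2 ratio of 0.13, with 5 of 6 above 0. Under scaling on the spike-ins none was, and Atg7 and Sqstm1 also lay below 0 with arrays scaled by their median. With the median over probe sets the group was at 0.01, and Atg5 (-0.02) and Map1lc3b (-0.16) also lay below 0. Becn1 (Beclin 1), of the complex that starts autophagosomes, had signals of 905 in the MSU pool and 690 in the control pool (0.39), and its 4 probe sets with a fold ranged from 0.13 to 0.44. Atg5, which couples LC3 to lipid, had 237 in the MSU pool and 201 in the control pool (0.24), but its other two probe sets gave -0.02 and -0.05. The enzyme Atg7, which activates LC3, had 273 in the MSU pool and 261 in the control pool (0.06). A dimmer Atg7 probe set, at 84.6 in the MSU pool and 22.4, below the floor, in the control pool, gave a bound of at least 1.31-fold higher. The cargo receptor Sqstm1 (p62), also a target of the stress factor NRF2, had 1722 in the MSU pool and 1682 in the control pool (0.03).

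The LC3 and GABARAP proteins coat the autophagosome, and their ratios lay on both sides of 0. Map1lc3b (LC3B) had signals of 2197 in the MSU pool and 1905 in the control pool (0.21), but -0.19 and -0.16 on its other two probe sets with a fold. Gabarapl1 had 752 in the MSU pool and 990 in the control pool (-0.40), and -0.45 on its second probe set. Of the relatives that are not members, Gabarap had 746 in the MSU pool and 2232 in the control pool and was 2.99-fold lower. Gabarapl2 was 1.76-fold lower, and Map1lc3a 1.53-fold lower, with 2.52-fold on a dimmer probe set. In all, 35 of 38 further autophagy genes with a probe set were measured, Gabarap was the 1 gene past 2-fold, and their median log2 ratio was -0.09.

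A further list of 22 genes held the TFEB relatives Tfe3 and Tfec and genes of nutrient sensing by mTORC1, the kinase complex at the lysosome surface that holds TFEB in the cytosol, and regulators of that complex, inhibitors among them. All but Rragb, for which the annotation used here listed no probe set, were measured. Of these 21, 2 passed 2-fold, both downward, with a median log2 ratio of -0.02. Both belong to the Ragulator complex, which anchors mTORC1. Lamtor4 had signals of 83.8 in the MSU pool, near the floor of 74.1, and 229 in the control pool (2.73-fold lower). Lamtor2 had 166 in the MSU pool and 377 in the control pool (2.27-fold lower). The other subunits were also below 0 but differed less, with log2 ratios of -0.51 for Lamtor3 and -0.26 for Lamtor5. Lamtor1, the membrane anchor, had 1110 in the MSU pool and 1215 in the control pool (log2 ratio -0.13). Of the further membrane proteins, 23 of 24 were measured, and 2 passed 2-fold, both upward. Besides Mcoln2 this was Slc11a1 (NRAMP1), a metal transporter of phagosomes in macrophages and neutrophils, with 1166 in the MSU pool and 540 in the control pool (2.16-fold higher). Across all these pathway lists, 126 of 138 genes with a probe set were measured, and 3 passed 2-fold upward and 3 downward. Over all 11155 measured genes, 3.7% passed 2-fold upward and 4.29% downward. The median log2 ratio of the pathway genes was -0.13, beside -0.05 over all genes with a fold.

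**Figure D3:**
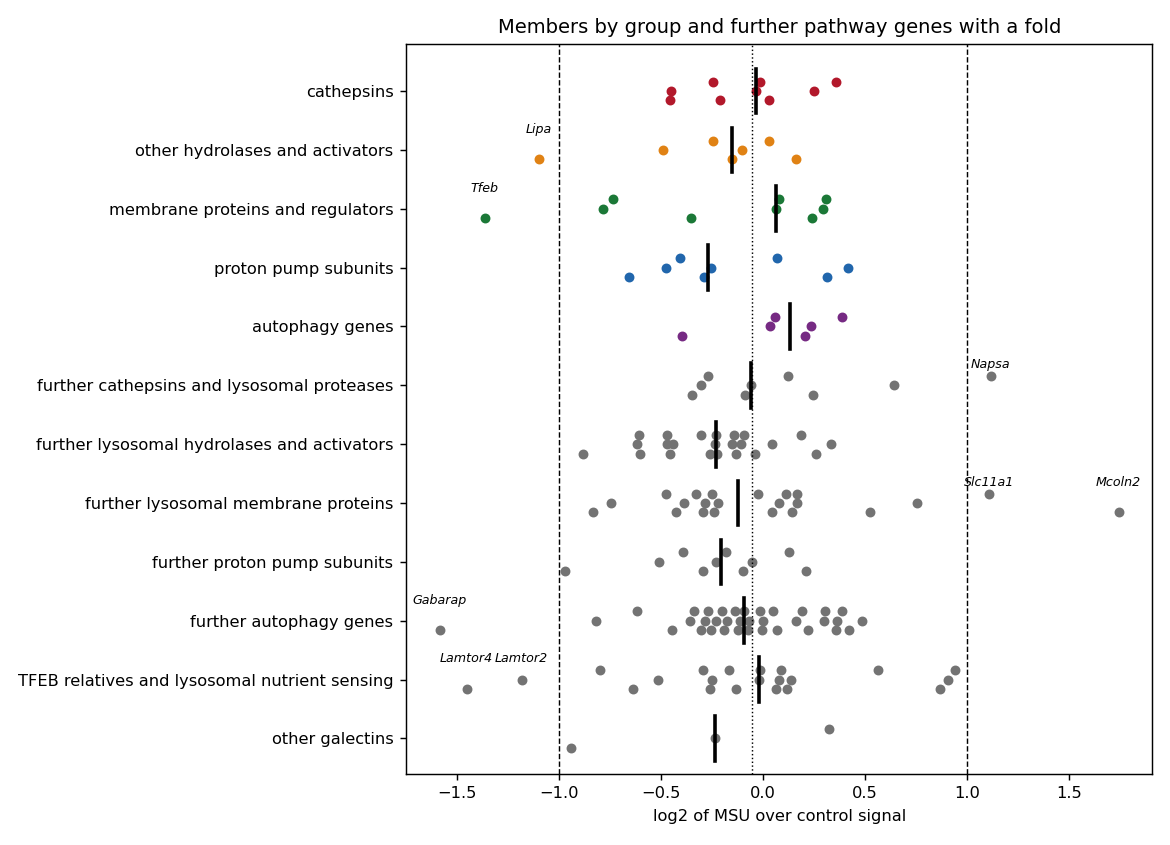
Log2 ratio, MSU over control (x axis), of the members in their 5 groups (coloured) and for further genes of the pathway with a fold (grey), 1 array per pool. Each point is a gene, black bars are list medians, dashed lines 2-fold and the dotted line the median of all genes, -0.05, and genes past 2-fold are named. Group medians run from -0.27 for proton pump subunits to 0.13 for autophagy genes, and most points lie between the dashed lines.

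The 5 group medians, each over 6 to 9 genes, were not tested against each other. Of the 23 members with several probe sets with a fold, 4 had all of them above 0, 8 had all below 0 and 11 were mixed, with a median SD of 0.22 within a gene. The 8 were Ctsa, Ctsc, Ctsz, Lipa, Mcoln1, Scarb2, Atp6v1d and Gabarapl1, and the 4 Becn1, Atp6v1b2, Gla and Psap.

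Markers of several cell types differed between the pools beside these values. Of all measured genes, 3.7% passed 2-fold upward and 4.29% downward. Of 15 neutrophil markers, 12 were measured and 11 of these were past 2-fold upward, with a summed signal of 25474 in the MSU pool and 3274 in the control pool. Of 18 resident macrophage markers, 16 were measured and 3 passed 2-fold, all downward (Trem2, Cbr2 and Folr2), with summed signals of 33441 in the MSU pool and 35721 in the control pool. Of the 16, 5 had a ratio above 0 and 11 below. The highest were Cd163, with 2467 in the MSU pool and 1270 in the control pool (1.94-fold higher), and Mrc1. Mrc1 had 6420 in the MSU pool and 3609 in the control pool (1.78-fold higher). The macrophage receptor Csf1r had 6120 in the MSU pool and 5349 in the control pool (log2 ratio 0.19). Timd4 and Marco lay below the floor in both. Of 6 recruited monocyte markers, 2 passed 2-fold upward. Of 7 measured adipocyte markers, 6 passed 2-fold downward, with summed signals of 2391 in the MSU pool and 10745 in the control pool, and of 12 skeletal muscle markers 5 did, with 26972 in the MSU pool and 41450 in the control pool. Of 6 measured keratin epithelium markers, 4 passed 2-fold downward, with summed signals of 629 in the MSU pool and 1825 in the control pool. None of 11 fibroblast markers passed 2-fold. The part of these cell types in the ratios of Tfeb, Lipa, Cd68 and the other members was not tested.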

How the data were processed

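RNA from the membranes of 3 mice per group was pooled and hybridized to 1 Affymetrix Mo430_2 array per pool. The authors deposited 1 signal intensity per probe set on a linear scale, computed by MAS5 according to the submitters' notes, with its version not given in the sources used here. Each array's mean was 150.0 once 2% of probe sets at either end were trimmed. One factor per array sets all levels, so a shift shared by most genes would not be seen.

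Of the probe sets, 34958 have a single gene in GEO's platform annotation, and symbols were updated through RefSeq gene identifiers. Floors, folds and bounds were computed in Python 3.11.15 with numpy 2.4.6 and pandas 2.3.3, and the gene step was tested on simulated data. Changes were simulated only for genes with brighter control signals, so that test does not cover changes near the floor. A bound sets the signal above the floor against the other array's floor, and a gene counts as measured if it has either a fold or a bound. With 1 array per group no p-value was computed, and the number of arrays limits the precision.

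The members and lists were chosen with earlier results of these data known. All members are named, as are pathway genes at least 2-fold higher or lower. Other genes were named after their values were seen. Alternatives were 3 other scalings, 3 other treatments of the floor, 2 choices of probe sets, other fold sizes and medians with bounds. A planned comparison of protein sequences was not run.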

Additional observations from a re-analysis of the deposited data

How the results depend on the processing

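With 1 array per pool, replicates could not be left out and no paired analysis was possible because each group had a single pooled sample. No member was at least 2-fold higher under any of the settings tried. The share of measured genes that were ran from 1.77% under scaling on the spike-ins to 8.92% with no floor, where all 18193 genes count as measured. The number of members at least 2-fold lower, 2 as reported, stayed at 2 (Lipa and Tfeb) with arrays scaled by their median. It also stayed at 2 with quantile normalization and with no floor. Of measured genes, 5.15%, 4.17% and 9.48% were at least 2-fold lower in these settings, in that order. The number of members was 5 under scaling on the spike-ins (Lipa, Tfeb, Cd68, Mcoln1 and Atp6v1d), where 15.8% of measured genes were at least 2-fold lower. It was 1 with a floor at the 15000th signal, where Tfeb fell below the floor on the MSU array and 4.01% of measured genes were that low. It was also 1 with the median over probe sets (3.90% of measured genes) and 1 without probe sets ending in _x_at or _s_at (4.38%). In both, the log2 ratio of Lipa was -0.96. The number was 0 with the floors added as a pseudocount (Lipa -0.95, Tfeb -0.82), where 1.20% of measured genes were that low. It was 0 at a size of 3-fold (0.717% of measured genes) and 5 at 1.5-fold (14.4%).

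Scaling on the spike-ins lowered the median log2 ratios to -0.49 for all members, -0.49 for cathepsins, -0.61 for other hydrolases and activators, -0.39 for membrane proteins and regulators, -0.73 for proton pump subunits and -0.32 for autophagy genes, beside -0.51 for all genes. Without _x_at and _s_at probe sets the median of membrane proteins and regulators was -0.29, with Grn at -0.29 in place of 0.24. The other medians moved by less than 0.22, the median SD between probe sets of a gene. With the median over probe sets, the ratios of 9 of 39 members moved by more than that. The MSU signals of Tfeb and Atp6v0d2 lay near the floor, and the probe sets of Atp6v1h and Ctsb differed from each other by 2.51-fold and 2.47-fold.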
